A study of Mus musculus with 10 samples.

Results

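The set described here is 35 genes for transcription factors of the facial mesenchyme, chosen by name as regulators of the cranial neural crest and of the mesenchyme it forms, with the Dlx, Hand, Pax and Pitx genes left out. The names were taken with no threshold on any value, but with earlier results of these data known. All 35 are among the 22114 protein-coding genes with a read count, and all 35 were among the 14561 genes with at least 10 reads in at least 1 arch that were tested. RNA was sequenced from the whole first pharyngeal arch (PA1), which holds the maxillary and mandibular processes, of 5 wild-type and 5 Grhl2-/- mouse embryos at E10.5 (embryonic day), with 1 library per embryo. All 10 embryos were male, and the labels give C57BL/6 as their strain. The Grhl2-/- embryos were homozygous for a germline null allele, bred from heterozygous parents, so the gene was missing in every tissue and not in the epithelium alone. The arches were not sorted, so epithelium, neural crest mesenchyme, mesoderm, vessels, blood and attached nerve tissue all contribute RNA, and in such bulk samples fewer cells of a type and less RNA per cell cannot be told apart.

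Ectomesenchyme is the loose tissue that neural crest cells form once they have reached the face, and it later builds the jaw and palatal skeleton, the tooth papillae and the dermis. Its cells read their position from signals of the overlying epithelium, among them fibroblast growth factors, bone morphogenetic proteins and Sonic hedgehog, and answer with regional sets of homeodomain, T-box and forkhead factors. Grhl2 encodes a grainyhead-like transcription factor of that epithelium. The comparison asks which mesenchymal regulators differ in level when this epithelial factor is missing.

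The read totals lay between 22188454 and 28801378 per arch, of which the 35 members took 0.273% to 0.343%. Grhl2 itself had 794 to 1163 reads in wild-type and 81 to 178 in Grhl2-/- arches, lower in every arch labelled Grhl2-/-. Levels below are CPM, read counts scaled to the TMM-normalized library size, where 3 reads in an arch equal 0.104 to 0.135 CPM, and fold changes are Grhl2-/- minus wild-type on the log2 scale. All 9 markers of arch mesenchyme were detected, and 3 Hox genes that mark the more posterior arches and passed the filter had at most 40 reads in any arch. The arches differed in other tissue. Summed levels of 14 sensory neuron markers were 50.6, 42.4, 642, 1082 and 676 CPM in wild-type arches 1 to 5 and 363, 1055, 1404, 414 and 1012 in Grhl2-/- arches 1 to 5, so that wild-type arches 1 and 2 and Grhl2-/- arches 1 and 4 were the lowest of their groups. Of 11 brain and neural tube markers 9 were tested, and their sums were 23.3 to 50.7 CPM in wild-type and 65.8 to 133 in Grhl2-/- arches, without overlap, while Olig2 had at most 1 read in any arch. The 6 eye markers summed to 37.3 CPM in Grhl2-/- arch 1 and 10.4 in arch 4, against at most 7.63 elsewhere. The 10 arch epithelium markers summed to 344 to 462 CPM in wild-type and 169 to 255 in Grhl2-/- arches, and 7 of them were lower, of which Cldn4, Epcam, Cdh1, Cldn6, Esrp1 and Cldn7 had the lowest limma-voom FDR (2.67e-06 for Cldn4 to 0.000353 for Cldn7). The brain marker Fgf15 (1 to 23 against 38 to 103 reads, limma-voom FDR 0.00814) and the ear marker Pax8 (0 to 1 against 13 to 66 reads, limma-voom FDR 0.00971) were higher.

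**Figure D1:**
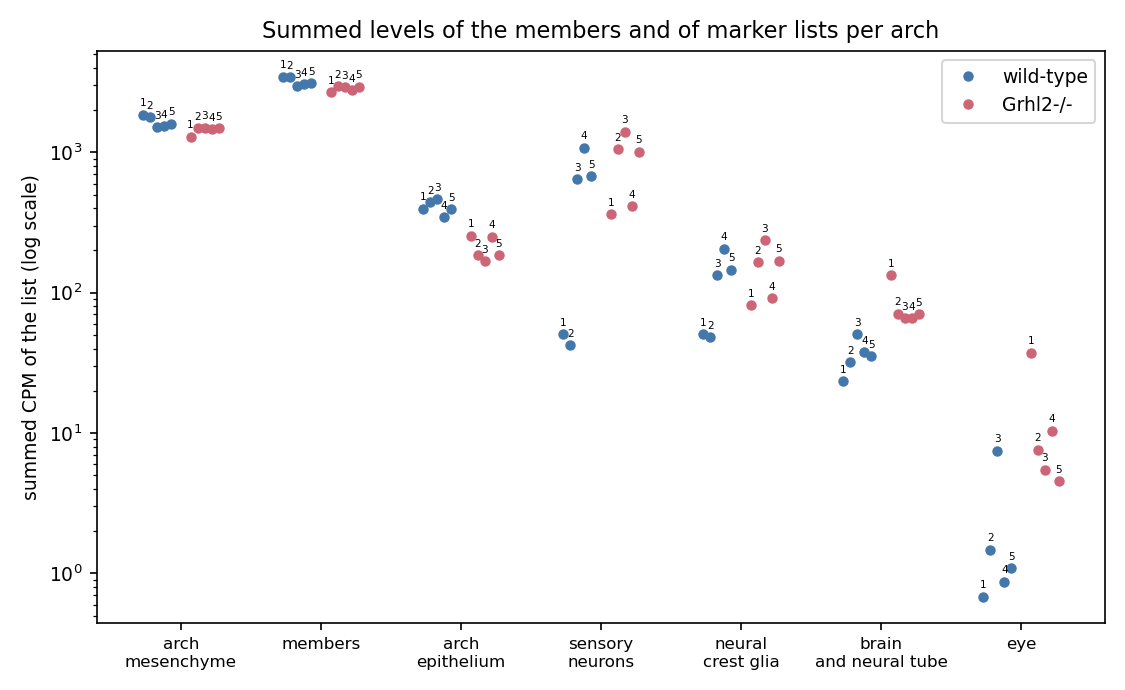
Summed TMM-normalized CPM of the 35 members and of marker lists (vertical log axis), 1 point per arch, with the arch number above it. The sums of the members and of the arch mesenchyme list vary little on this axis but are lower in every Grhl2-/- arch than in any wild-type arch. Members summed to 2970 to 3460 CPM in wild-type and 2700 to 2963 in Grhl2-/- arches, arch mesenchyme to 1518 to 1859 and 1295 to 1504. Prrx1, with mean levels of 662 CPM in wild-type and 558 in Grhl2-/- arches, is in both lists, so the 2 sums are not independent. The sensory neuron sum of wild-type arches 1 and 2 is far below that of the other 8 arches.

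Lhx6, Lhx8, Msx1 and Nr2f2, members that differed between the genotypes, have a promoter in the RefSeq set for GRCm38.p6. This set gives 250 bases before and 50 bases after each transcription start. Of the 35 members, 23 matched it, with 29 promoters. Tbx2 and Tbx3 also differed between the genotypes but had no promoter in this set, so they are named only. The promoters of the LIM-homeodomain genes Lhx6 and Lhx8, of Msx1 and of Nr2f2 are shown because these genes differed between the genotypes. They were searched on both strands for the grainyhead-like site AACCGGTT and for the shorter string AACCGG, a part of that full site. They were also searched for the E-box CAGGTG that Snail and Zeb factors recognise. Capitals mark a match, which in both cases here is on the opposite strand and so reads as the reverse complement.
Lhx6 (chr2:36104011-36104310, minus strand): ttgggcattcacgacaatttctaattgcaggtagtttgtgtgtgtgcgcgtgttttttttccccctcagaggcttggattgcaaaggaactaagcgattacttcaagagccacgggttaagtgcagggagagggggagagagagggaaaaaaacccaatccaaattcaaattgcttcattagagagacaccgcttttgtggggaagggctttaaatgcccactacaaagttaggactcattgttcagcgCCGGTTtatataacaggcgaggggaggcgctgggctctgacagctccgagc
Lhx8 (chr3:154330511-154330810, minus strand): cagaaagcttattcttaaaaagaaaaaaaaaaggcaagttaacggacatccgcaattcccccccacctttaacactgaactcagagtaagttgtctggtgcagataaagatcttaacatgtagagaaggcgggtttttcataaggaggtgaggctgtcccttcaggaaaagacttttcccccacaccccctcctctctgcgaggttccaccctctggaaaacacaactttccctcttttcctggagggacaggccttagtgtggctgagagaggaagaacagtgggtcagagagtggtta
Msx1 (chr5:37824536-37824835, minus strand): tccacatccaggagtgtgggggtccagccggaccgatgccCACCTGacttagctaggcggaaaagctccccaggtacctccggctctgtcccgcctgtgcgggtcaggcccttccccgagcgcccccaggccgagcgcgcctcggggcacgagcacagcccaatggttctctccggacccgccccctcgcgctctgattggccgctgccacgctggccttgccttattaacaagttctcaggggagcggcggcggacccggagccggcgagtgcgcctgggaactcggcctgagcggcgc
Nr2f2 (chr7:70366697-70366996, minus strand): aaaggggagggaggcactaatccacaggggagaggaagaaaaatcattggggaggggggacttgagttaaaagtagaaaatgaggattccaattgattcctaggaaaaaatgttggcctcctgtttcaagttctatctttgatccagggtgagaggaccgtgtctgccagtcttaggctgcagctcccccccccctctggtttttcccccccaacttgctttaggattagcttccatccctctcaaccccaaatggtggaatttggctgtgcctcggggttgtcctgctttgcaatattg
The full site was in 0 of the 29 member promoters and in 0.146% of all 32851 promoters of this length. The shorter string was in 1 member promoter, this 1 of 3 starts of Lhx6, beginning at base 250 of the printed run, and in 6.83% of all promoters. The E-box was in 1 member promoter, that of Msx1, beginning at base 41, and in 20.2% of all. A match is a description of letters in this window and not of binding.

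At FDR below 0.01 in limma-voom, 5 of the 35 members were lower in Grhl2-/- PA1, Lhx6, Lhx8, Msx1, Tbx2 and Tbx3, against 1.09% of all genes tested. A single member, the nuclear receptor gene Nr2f2, was higher, against 0.879% of all genes. The other 29 did not pass. The number of lower members was 3 without wild-type arch 1, wild-type arch 5 or Grhl2-/- arch 4, and 4 to 6 with any other arch left out. All 5 Grhl2-/- arches lay below all 5 wild-type arches in 6 members, the 5 that were lower and Pou3f3, where 4.66% of all genes did so. All 5 lay above in 1 member, Nr2f2, where 4.22% of all genes did so. The median log2 fold change of the members was -0.14, beside 0.011 over all genes tested, and 22 of the 35 were negative, beside 47.3% of all genes. The share of members called lower, 14.3%, was above that of all genes, while the higher share of 2.86% rests on 1 gene. No test of the set was made, since the members were chosen with earlier results of these data known. All genes tested also include genes with few reads, in which a difference is harder to call.

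**Figure D2:**
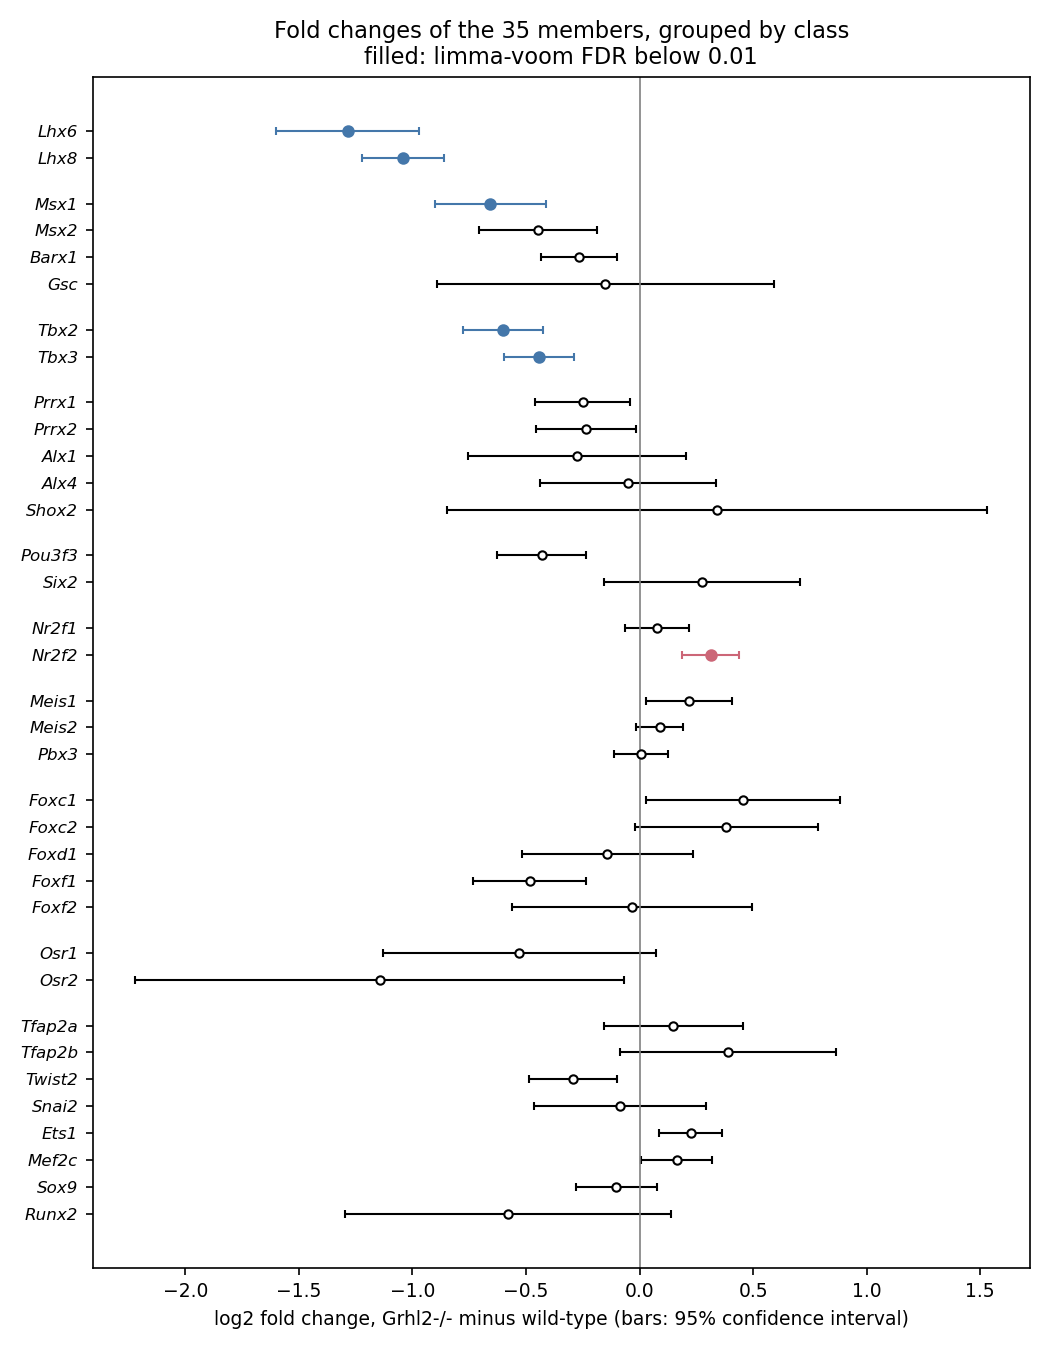
Log2 fold change (horizontal axis, Grhl2-/- minus wild-type) with its 95% confidence interval for each of the 35 members, grouped by class, with filled points for limma-voom FDR below 0.01. The LIM-homeodomain and T-box genes are entirely to the left of 0, the forkhead genes lie on both sides, and the widest intervals belong to Shox2 and Osr2.

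The LIM-homeodomain factors Lhx6 and Lhx8 had the most negative fold changes among the called members. Both mark the oral side of the arch mesenchyme, where they act in palate and tooth development and where epithelial FGF8 is known to switch them on. Lhx6 (ENSMUSG00000026890, chromosome 2 from 36081953 to 36105408, minus strand, GRCm38) had 109, 89.1, 60.4, 79.9 and 77.6 CPM in wild-type arches 1 to 5. In Grhl2-/- arches 1 to 5 it had 27.5, 32.2, 38.1, 35.3 and 34.2 CPM. The highest Grhl2-/- arch was well under the lowest wild-type arch, and the wild-type arches were spread more widely than the Grhl2-/- arches. Mean levels were 83.1 ± 17.6 and 33.5 ± 3.96 CPM (SD, n = 5 each; log2 fold change -1.29, standard error 0.14, limma-voom FDR 0.000385), a level 2.44-fold lower. Lhx8 (ENSMUSG00000096225, chromosome 3 from 154306294 to 154330659, minus strand) had 124, 112, 91.6, 97.2 and 102 CPM in the wild-type arches and 45.4, 50.2, 50.5, 53.6 and 54.6 in the Grhl2-/- arches. The Grhl2-/- arches were tightly grouped at 45.4 to 54.6 CPM and none came near the wild-type range. Lhx8 fell 2.06-fold (log2 fold change -1.04, standard error 0.083, limma-voom FDR 2.66e-05; 95% confidence interval -1.22 to -0.86), and it had the lowest FDR of the 35.

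Lhx6 and Lhx8 stayed below FDR 0.01 with each of the 10 arches left out in turn, with FDR up to 0.0018 for Lhx6 and 0.00018 for Lhx8. Without wild-type arches 1 and 2, which were low in sensory neuron markers and highest in Lhx6 and Lhx8, the log2 fold changes were -1.12 (limma-voom FDR 0.000836) and -0.95 (5.93e-05). With the brain and neural tube markers as a covariate, the log2 fold change of Lhx6 was -0.64 and no longer passed (limma-voom FDR 0.0378), and that of Lhx8 was -0.71 and passed (FDR 0.00562). That covariate shares 70.7% of its variance with genotype, so its part and that of genotype cannot be told apart.

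The homeodomain group of Msx1, Msx2, Barx1 and Gsc held 1 called gene of 4. Msx1, a factor of tooth and palate mesenchyme that answers to bone morphogenetic proteins, had 201, 205, 142, 154 and 169 CPM in wild-type and 94.6, 110.4, 129, 104 and 111 CPM in Grhl2-/- arches. The groups did not overlap, with 142 CPM as the lowest wild-type and 129 as the highest Grhl2-/- value, and wild-type arches 1 and 2 stood above the other 3. Its level was 1.58-fold lower (log2 fold change -0.66, standard error 0.11, limma-voom FDR 0.00595). The call depends on which arches enter: leaving out wild-type arch 1, 2 or 5 or Grhl2-/- arch 2, 4 or 5 gave limma-voom FDR of 0.0139 to 0.0183. Msx2, its close relative in the same mesenchyme, had 69.7, 82.6, 61.9, 50.8 and 70.9 CPM against 47.5, 51.4, 41.0, 52.7 and 51.8, with wild-type arch 4 inside the Grhl2-/- range (log2 fold change -0.45, standard error 0.12, limma-voom FDR 0.0434), and it passed without that arch (FDR 0.00947). Barx1, a factor of the proximal, molar-forming mesenchyme and the member with the highest level per length, had 133, 128, 110.5, 106 and 106 CPM against 89.6, 103, 90.9, 93.1 and 107, and its lowest wild-type value, 106, lay just under its highest Grhl2-/- value, 107 (log2 fold change -0.27, standard error 0.077, limma-voom FDR 0.0554). Gsc, which acts in the lower jaw and middle ear skeleton, varied up to 16.4 CPM in wild-type and 15.7 in Grhl2-/- arches, and the interval of its fold change was -0.89 to 0.59.

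Both T-box members were lower. Tbx2 and Tbx3 encode closely related transcriptional repressors that respond to bone morphogenetic proteins in several embryonic tissues. Tbx2 (ENSMUSG00000000093, chromosome 11 from 85832551 to 85841948, plus strand) had 227, 224, 196, 172 and 178 CPM in wild-type and 143, 125, 127, 126 and 132 CPM in Grhl2-/- arches. The Grhl2-/- arches had a spread under that of the wild-type arches, and their highest value was below the lowest wild-type value. Its level was 1.52-fold lower (log2 fold change -0.60, standard error 0.080, limma-voom FDR 0.00136), and it passed with each arch left out in turn (FDR up to 0.00598). Tbx3 (chromosome 5 from 119670669 to 119684724, plus strand) had 147, 169, 144, 130.4 and 152 CPM in wild-type and 106, 115, 99.8, 105 and 119.9 CPM in Grhl2-/- arches. Its groups were separate by the gap between 119.9 and 130.4 CPM. Its level was 1.36-fold lower (log2 fold change -0.44, standard error 0.070, limma-voom FDR 0.00426), and leaving out wild-type arch 1, 3 or 5 or Grhl2-/- arch 4 gave limma-voom FDR of 0.0101 to 0.015. Exons of Tbx3 are overlapped on the opposite strand by Tbx3os1. The libraries were stranded, and the name of the count table refers to reverse-strand counting, but no source used here states the setting. Without strand, reads of the 2 genes could not be told apart. Such an overlap on the opposite strand was present for 10 of the 35 members. Exons of 3 members are overlapped on the same strand, those of Lhx6 by Gm27953, of Alx1 by Gm17028 and of Meis1 by Gm37818. Strand does not tell the reads of such genes apart. With the brain and neural tube markers as a covariate, Tbx2 and Tbx3 did not pass at log2 fold changes of -0.59 and -0.41 (limma-voom FDR 0.0961 and 0.148), close to those without it. Msx1 did not pass either, and its log2 fold change went from -0.66 to -0.28 (FDR 0.361).

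**Figure D3:**
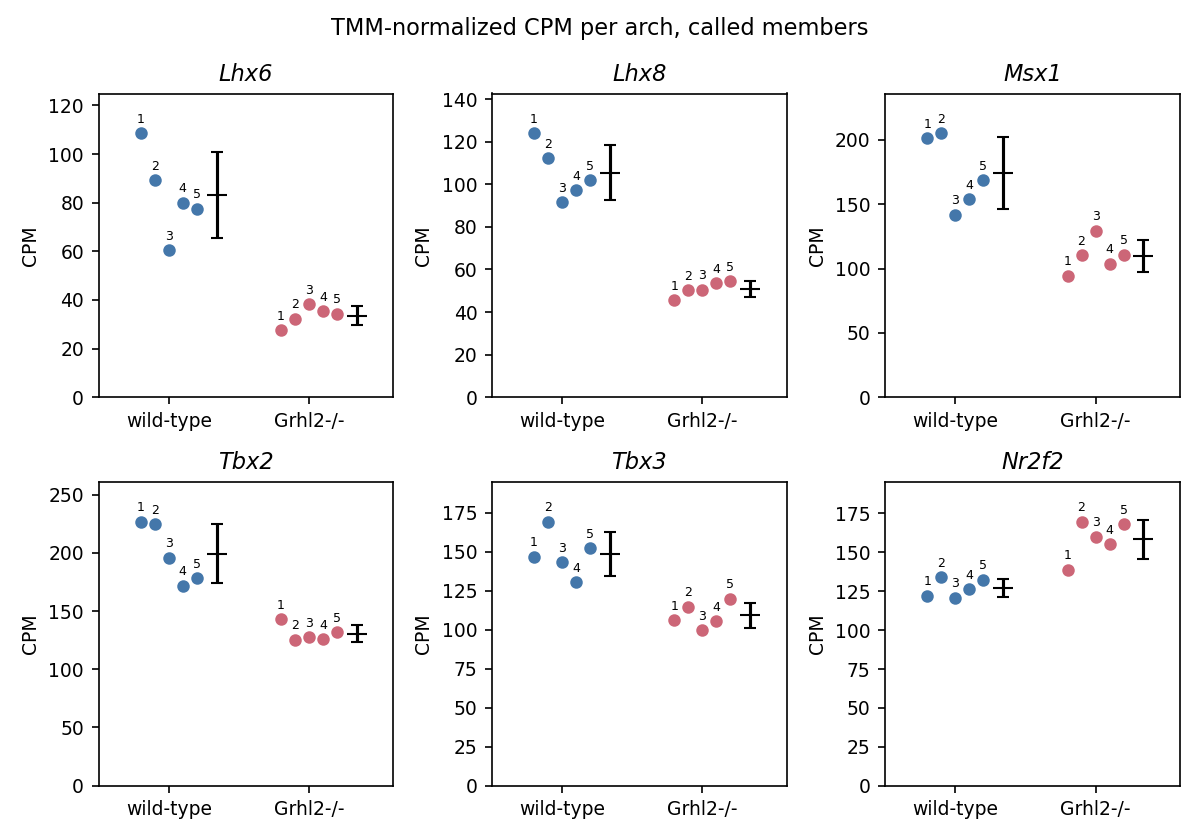
TMM-normalized CPM (vertical axes from 0) of the 6 called members, 1 numbered point per arch, with the mean and SD of the 5 arches of each genotype as a black bar. The Grhl2-/- points lie below all wild-type points in Lhx6, Lhx8, Msx1, Tbx2 and Tbx3 and above them in Nr2f2.

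The nuclear receptor genes Nr2f1 and Nr2f2 encode the COUP transcription factors, which pattern the maxillary part of the arch. Nr2f2 (ENSMUSG00000030551, chromosome 7 from 70351944 to 70366735, minus strand) had 122, 134, 121, 126 and 133 CPM in wild-type and 139, 169.8, 160.1, 155 and 168 CPM in Grhl2-/- arches. The highest wild-type arch, at 134 CPM, came close to the lowest Grhl2-/- arch, at 139. Its level was 1.24-fold higher (log2 fold change 0.31, standard error 0.057, limma-voom FDR 0.00917). Among fits with 1 arch left out it passed in the fewest, since it passed without Grhl2-/- arch 1 (limma-voom FDR 0.0014) and had limma-voom FDR of 0.0159 to 0.0286 with any other arch left out. A transcript on the opposite strand, B130024G19Rik, overlaps its exons, with the same limit on strand as for Tbx3. Nr2f1 was nearly level, at 176, 171, 167, 177 and 177 CPM against 182, 188, 197, 154 and 199.7 (95% confidence interval -0.063 to 0.22, limma-voom FDR 0.448).

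Pou3f3, which is needed for upper jaw bones, had 96.9, 91.7, 81.0, 90.0 and 82.8 CPM in wild-type and 54.7, 69.3, 66.7, 60.2 and 79.3 CPM in Grhl2-/- arches. The groups were just separate, and the difference missed the threshold (log2 fold change -0.43, standard error 0.089, limma-voom FDR 0.0172); leaving out Grhl2-/- arch 5, the highest of its group, gave an FDR of 0.00487. Six2, a regulator of the frontonasal and skull base mesenchyme, was low, at 3.66 to 6.99 CPM in wild-type and 4.65 to 8.50 in Grhl2-/- arches (limma-voom FDR 0.38).

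None of the paired-related homeodomain genes passed, with limma-voom FDR from 0.116 for Prrx1 to 0.876 for Alx4. Prrx1, a broad regulator of limb and facial mesenchyme, had 718, 739, 580.1, 610.4 and 664 CPM in wild-type and 441, 614, 606, 545 and 586 CPM in Grhl2-/- arches. Grhl2-/- arch 1 was the lowest of all 10, and the other Grhl2-/- arches lay around the lower wild-type arches (log2 fold change -0.25, 95% confidence interval -0.46 to -0.042). Its relative Prrx2 was at -0.24 (FDR 0.153). The frontonasal genes Alx1 and Alx4 had log2 fold changes of -0.27 and -0.052. Shox2, which acts in the anterior palate and the jaw joint, varied more than its genotypes differed, with 14.4, 4.28, 19.1, 35.4 and 17.8 CPM in wild-type and 9.45, 28.0, 38.7, 10.2 and 23.4 CPM in Grhl2-/- arches (coefficients of variation 61.8% and 56.4%). Its lowest wild-type arch was arch 2 and its lowest Grhl2-/- arches were 1 and 4, which were also low in sensory neuron markers, and that tissue's part in Shox2 was not tested beyond the fit with the sensory neuron covariate, where its log2 fold change turned from 0.34 to -0.46.

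The forkhead genes behaved differently from each other. Foxc1 and Foxc2 act in eye, skull and vessel mesenchyme, Foxd1 marks several stromal mesenchymes, and Foxf1 and Foxf2 are mesenchymal genes that answer to Sonic hedgehog. Foxc1 had 64.2, 77.8, 93.7, 70.8 and 66.8 CPM in wild-type and 158, 81.2, 74.2, 125 and 91.1 CPM in Grhl2-/- arches. Grhl2-/- arches 1 and 4 were far above the rest and the other 3 lay inside the wild-type range (log2 fold change 0.46, standard error 0.19, limma-voom FDR 0.151). Both arches also had the highest sums of eye markers among the 10, 37.3 and 10.4 CPM, and the part of that tissue in Foxc1 was not tested. The same 2 arches were the 2 highest of the Grhl2-/- group for 5 members, Alx1, Foxc1, Foxc2, Foxd1 and Foxf2, which is 14.3% of members beside 11.3% of all genes. Foxf2 had 29.1 and 32.0 CPM in them and 13.1 to 21.2 in the other 3, around a wild-type range of 16.7 to 24.6, and its mean was close to that of wild-type (log2 fold change -0.033). Foxf1 did not follow them. It had 32.2, 34.2, 31.4, 29.7 and 26.0 CPM in wild-type and 23.7, 20.7, 26.0, 23.3 and 16.5 CPM in Grhl2-/- arches, where the lowest wild-type arch (26.0) lay at the level of the highest Grhl2-/- arch (26.0) (log2 fold change -0.48, standard error 0.11, limma-voom FDR 0.0282). Pairs of these genes are close on the genome, Foxf1 and Foxc2 with 28.0 kb between them on chromosome 8 and Foxf2 and Foxc1 with 175.2 kb between them on chromosome 13. Foxf1 and Foxc2 had fold changes of opposite sign although they are neighbours.

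**Figure D4:**
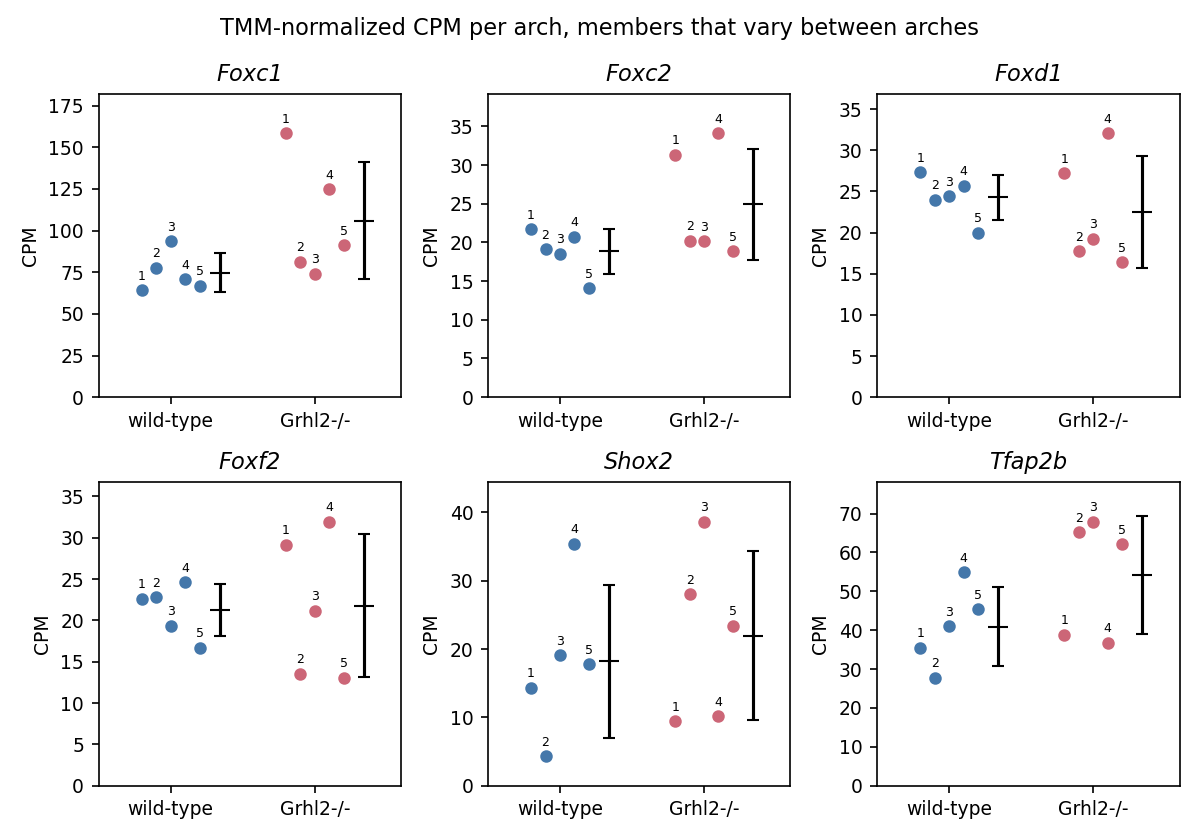
TMM-normalized CPM (vertical axes from 0) of 6 members that vary within a genotype, 1 numbered point per arch, with the mean and SD of the 5 arches as a black bar. Grhl2-/- arches 1 and 4 are the 2 highest of their group in the 4 forkhead panels and among the lowest in Shox2 and Tfap2b.

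The odd-skipped zinc finger genes Osr1 and Osr2, the second of which drives growth of the palatal shelves, had log2 fold changes of -0.53 and -1.14 without passing (limma-voom FDR 0.225 and 0.153). Osr2 was low, with 9 to 68 reads per arch, and the interval of its fold change ran from -2.22 to -0.068. Wild-type arch 1 was the highest of its group in both. The TALE homeodomain cofactors Meis1, Meis2 and Pbx3, which bind DNA together with other homeodomain proteins, had limma-voom FDR of 0.131, 0.241 and 0.962, with log2 fold changes of 0.22, 0.088 and 0.0053. Pbx3 had the smallest fold change of these, at 96.3, 102, 89.6, 98.0 and 96.0 CPM in wild-type and 87.3, 99.3, 98.5, 93.9 and 106 CPM in Grhl2-/- arches (95% confidence interval -0.11 to 0.12).

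The remaining 8 members are regulators of neural crest specification and of cartilage, bone and vessels, and their limma-voom FDR ran from 0.0527 for Ets1 to 0.779 for Snai2. Ets1, expressed in migrating crest and in endothelium, had 129, 119.7, 142, 125 and 119.7 CPM in wild-type and 158, 156, 149, 129.5 and 151 CPM in Grhl2-/- arches. A single Grhl2-/- arch, arch 4, lay inside the wild-type range. Summed endothelial markers were 397 to 453 CPM in wild-type and 437 to 524 in Grhl2-/- arches, and their part in the Ets1 level was not tested. Twist2, a basic helix-loop-helix factor of mesenchyme and dermis, was at -0.29 (FDR 0.0643), and Mef2c, a jaw patterning and endothelial factor, at 0.16 (FDR 0.16). Sox9, the master factor of cartilage, had 80.6, 98.4, 81.0, 73.6 and 79.1 CPM against 77.9, 74.3, 67.5, 86.6 and 78.2, which bounds its log2 fold change at -0.28 to 0.077. Tfap2a and Tfap2b, factors of crest and surface ectoderm, were at 0.15 and 0.39, and Snai2, a repressor known from epithelial to mesenchymal transition, at -0.085. Runx2, the factor of bone formation, was barely expressed at this stage, with at most 3.41 CPM in any arch.

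Per kb of exon, wild-type levels spanned a wide range, from 83.4 CPM per kb for Barx1 to 0.255 for Runx2. After Barx1 came Prrx1 (59.9), Msx1 (56.3), Tbx2 (55.0), Prrx2 (43.0), Lhx8 (41.6) and Nr2f1 (34.1). Among neighbours in the full order, the ranges over the 5 arches were separate between Barx1 and Prrx1, Lhx8 and Nr2f1, Nr2f1 and Meis2, Pou3f3 and Foxf2, Foxd1 and Six2, and Mef2c and Osr2, and all other neighbours overlapped. In Grhl2-/- arches Lhx6 went from rank 12 to 25, at 17.3 and 6.97 CPM per kb. Lhx8 went from 6 to 8, Msx1 from 3 to 6 and Nr2f2 from 17 to 10. Lhx6 had the largest change of rank among these 4.

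**Figure D5:**
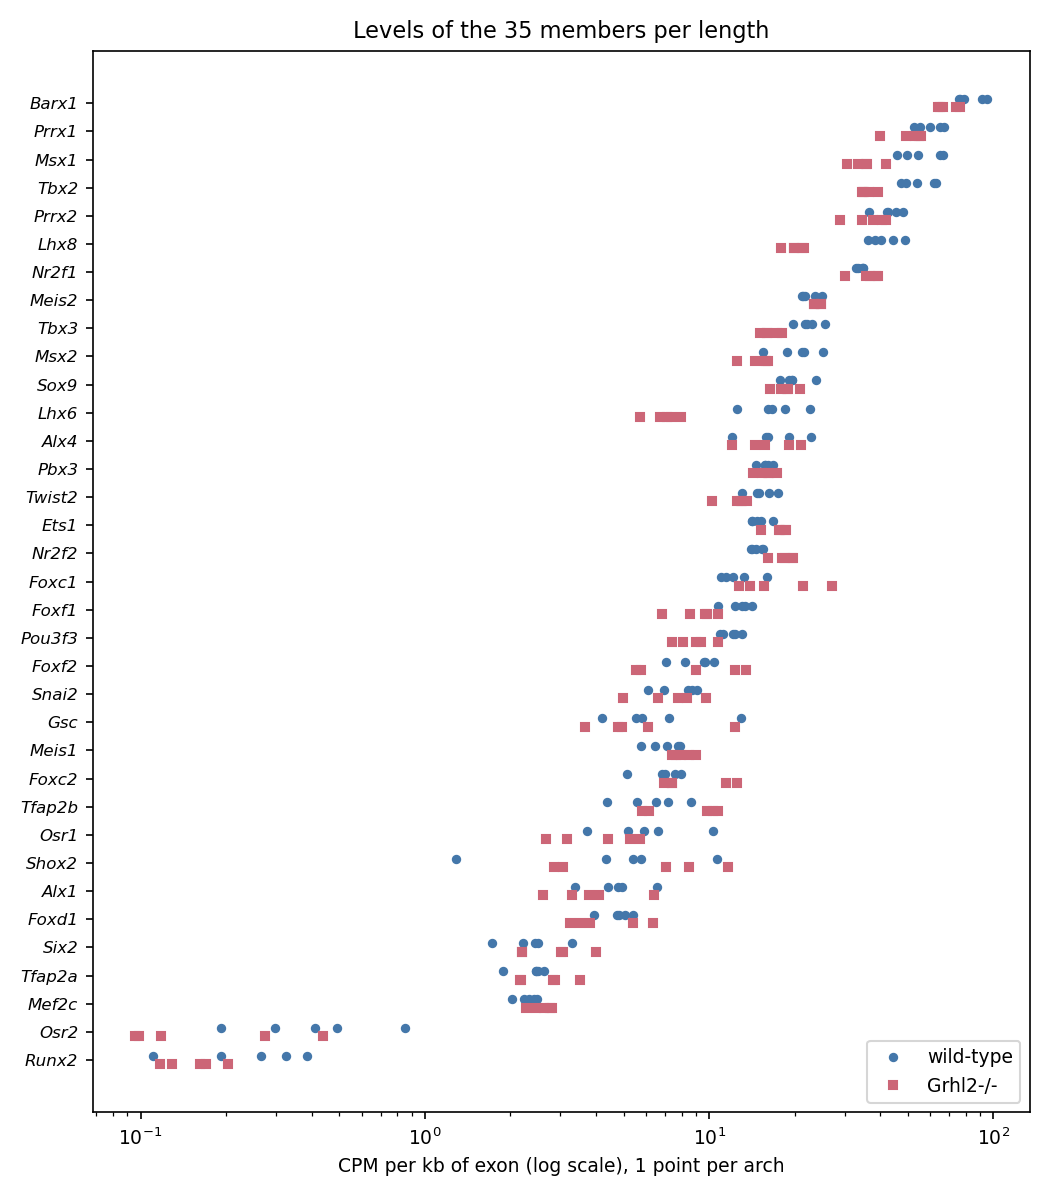
CPM per kb of union exon length (horizontal log axis) of the 35 members ordered by wild-type mean, 1 point per arch, circles for wild-type and squares for Grhl2-/-. Barx1 is at the top at 83.4 CPM per kb in wild-type arches, and the squares of Lhx6 and Lhx8 lie clearly left of their circles.

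The members also followed differences between arches of the same genotype. Wild-type arches 1 and 2, the 2 lowest in sensory neuron markers, were the 2 highest wild-type arches for 12 of the 35 members, or 34.3%, beside 12.2% of all genes, and these 12 include Msx1, Barx1, Prrx1, Lhx6, Lhx8, Tbx2 and Pou3f3. Grhl2-/- arches 1 and 4 were the 2 lowest for 12 members, also 34.3%, beside 14.9% of all genes. These were Msx1, Gsc, Prrx1, Shox2, Pou3f3, Nr2f1, Nr2f2, Pbx3, Tfap2b, Twist2, Mef2c and Runx2. Of the members called lower, Msx1 alone was among them, and Nr2f2 was called higher. The 9 arch mesenchyme markers, which include Prrx1, summed to 1518 to 1859 CPM in wild-type and 1295 to 1504 in Grhl2-/- arches, with a median log2 fold change of -0.25 and all 9 negative. The part of the arches' tissue make-up in the fold changes of the members was not tested beyond these values and the fits that leave arches out or add a marker covariate. Without wild-type arches 1 and 2, or without Grhl2-/- arches 1 and 4, Lhx6, Lhx8 and Tbx2 passed and Msx1 and Tbx3 did not, with limma-voom FDR of 0.0203 and 0.0275 in the first fit and 0.027 and 0.0248 in the second. With the sensory neuron covariate the same 3 passed.

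Relatives from the same gene families and the signals that act on this mesenchyme were read from lists. Of 46 family relatives 40 were tested, of which 1 was lower and 1 was higher. The lower was Tfap2c, a factor of surface ectoderm, with 450 to 538 reads in wild-type and 226 to 301 in Grhl2-/- arches (log2 fold change -0.99, limma-voom FDR 0.000791). The higher was Six5 (log2 fold change 0.32, limma-voom FDR 0.00277). Of 25 genes for signals and their response, 1 passed: Bmp2, a bone morphogenetic protein, was higher, with 42 to 91 reads in wild-type and 126 to 168 in Grhl2-/- arches (log2 fold change 1.12, limma-voom FDR 0.000752). Fgf8, the epithelial ligand named above, was at -0.55 (limma-voom FDR 0.0422) and Dusp6, a gene of the FGF response, at -0.30 (FDR 0.0104). Both were short of the threshold, as were the other FGF ligands and response genes of the list. Their log2 fold changes were -0.43 for Fgf9, -0.022 for Fgf10, -0.43 for Etv4, -0.26 for Etv5, -0.076 for Spry1 and 0.16 for Spry2. Besides Bmp2, no bone morphogenetic protein or response gene of the list passed. Bmp4 was at 0.34 (limma-voom FDR 0.0398), Id3 at 0.27 (FDR 0.0444) and Bmp7 at 0.0026. Id1 was at 0.077, Id2 at 0.014, Smad6 at 0.13 and Smad7 at -0.021. Of the hedgehog genes, none of which passed, Shh was at -0.11, Ptch1 at -0.045, Gli1 at -0.13 and Hhip at 0.14. The part of these signals in the levels of the members was not tested. Of all 25 genes of the list, 15 had a negative fold change. The median log2 fold change was 0.17 over the relatives and -0.045 over the signal list, beside -0.14 over the members.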

How the data were processed

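Stranded, ribosomal RNA-depleted libraries were made by the authors from PA1 RNA of 10 male embryos. Reads were aligned to GRCm38 with STAR and counted per gene with featureCounts, and the authors deposited the counts of 22114 protein-coding genes without normalization. Versions of the alignment tools and the annotation release are not given in the sources used here, and the strand setting is not stated, although the name of the count table refers to reverse-strand counting. A second deposited table holds the authors' own fold changes and adjusted p-values, and was not used.

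The 14561 genes that reached 10 counts in any arch were scaled by TMM (edgeR 4.0.16) and fitted by limma-voom (limma 3.58.1, R 4.3.3), with genotype as the only term. Benjamini-Hochberg FDR was taken over all 14561 genes and called below 0.01. Standard errors are moderated, and 95% confidence intervals are those of limma, per gene, and cover the spread between embryos. The sample labels carry a number that some arches of both genotypes share, but nothing in them says what it stands for or which embryos shared a litter. The main fit left this label number out, and it entered only as a replicate block in other fits. Replicates were numbered 1 to 5 in deposit order, so the replicate numbers pair no arches. Counts of replicates were not duplicates, with a chi-square per gene of 7.05 to 25.5 over 20 pairs. Total counts per arch lay between 22188454 and 28801378, and the floor of 3 reads covers counting error only. Exon lengths come from GENCODE mouse release 21 and promoters from RefSeq on GRCm38.p6.

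The members and gene lists were chosen with earlier results of these data known. All 35 members are named, and of other lists any called gene, up to 6 with the lowest FDR, plus Grhl2 as a check. The FGF, bone morphogenetic protein and hedgehog ligands and response genes, and the genes marking other tissues, are named because a result refers to them. In simulated counts of 14370 genes, used to test the scripts, limma-voom recovered 79% of 100 genes changed 2-fold and 49% of 100 changed 1.4-fold with 1 false call, edgeR the same, and DESeq2 1.42.0 84% and 62% with 16 false calls. The same comparison was repeated with DESeq2 (no independent filtering), with edgeR's quasi-likelihood test, with a fixed or random replicate block of the label number, with marker covariates, with voomWithQualityWeights, with no filter and a CPM filter, with median-of-ratios or plain library size scaling, at FDR 0.05 and with each arch omitted. Leaving out the pairs of arches low in sensory neuron markers was chosen after seeing the data. Figures were drawn with matplotlib 3.10.9.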

Additional observations from a re-analysis of the deposited data

Results flagged for a closer look

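In each genotype the gap between the most extreme arch and its nearest neighbour was compared with the whole range on the log2 scale, for all 35 members, which made 70 groups of 5 arches, of which 3.5 would stand out by chance. In 3 groups 1 arch stood apart. Tfap2a in wild-type arch 1 had 9.22 CPM where the next arch had 12.03, a gap of 0.798 of the range. Twist2 in Grhl2-/- arch 1 had 32.6 CPM and the next 39.7, a gap of 0.718. Ets1 in Grhl2-/- arch 4 had 129.5 CPM and the next 149, a gap of 0.725. None of the 6 called members was among them.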

How the results depend on the processing

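With 5 arches per genotype, 49% of genes changed 1.4-fold were recovered in simulated counts, which limits what a missed threshold shows. The changed genes were drawn only from those above a minimum mean read count. Counts were simulated for each gene on its own, without tissue differences that genes share between arches. The 49% therefore need not hold for members with few reads, such as Osr2, or for members that vary together between arches. Median-of-ratios scaling, plain library size, no filter on low counts and a filter of 1 CPM in 5 arches kept the direction and the side of the threshold of all 35 members. Of the called members, Lhx8 passed in 13 of 13 other settings that keep a threshold of 0.01, Lhx6 in 12, Tbx2 in 11, Tbx3 and Nr2f2 in 9 and Msx1 in 8.

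An FDR of 0.05 gave 8 lower members (564 lower and 559 higher of all genes), and DESeq2 gave 9 (553 and 520), adding Msx2, Barx1, Pou3f3 and Foxf1. The sensory neuron covariate gave 3 lower members, the brain covariate 1 and either pair of arches left out 3. Nr2f2 was not called with the sensory neuron covariate, with the brain covariate, without wild-type arches 1 and 2 or with the fixed replicate block. The number of higher members was therefore 0 in these limma-voom fits. EdgeR and DESeq2 without these changes gave 1 and 1. At an unadjusted limma-voom p under 0.05, 7, 2, 4 and 5 members were higher in these fits in that order. The share of all genes under that cut-off was not taken in these fits. In the main fit 28.5% of all genes were under it, in either direction, so these counts are not read as a result about the members. Over all genes, 42 were higher with the sensory neuron covariate, 46 were lower and 3 higher with the brain covariate, 90 and 19 without wild-type arches 1 and 2, 56 higher without Grhl2-/- arches 1 and 4, and 204 higher with quality weights. The median of the members turned to 0.092 with the brain covariate. The cause was not tested.

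With each arch omitted there were 3 to 6 lower and 0 to 1 higher members, and 110 to 249 lower and 42 to 143 higher genes of all, where 249 came without Grhl2-/- arch 1 and at most 76 higher without any arch other than Grhl2-/- arch 1 (136) or 3 (143). Log2 fold changes then ran from -0.18 to 0.055 for Alx4, -0.44 to 0.059 for Gsc, -0.20 to 0.11 for Foxf2, -0.035 to 0.035 for Pbx3, -0.19 to 0.047 for Snai2 and -0.14 to 0.67 for Shox2.

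Wild-type and Grhl2-/- arches that share a label number correlated in their deviations at -0.237 to 0.420 over 5 pairs. The mean was 0.105, beside -0.025 over the 20 other pairs. Of 5 wild-type arches, 2 correlated best with their own number, and the numbers were not taken as pairs. Arches of the same genotype that share a number were not compared in this way. The random replicate block had an estimated correlation of 0.285 between arches of the same number. With the number as a fixed replicate block, 4 members were lower (Lhx6, Lhx8, Pou3f3 and Tbx3), while Tbx2 (log2 fold change -0.60, limma-voom FDR 0.0305) and Msx1 (-0.63, FDR 0.0317) did not pass, and 69 genes were lower and 60 higher. Grhl2-/- arches 2 and 5 carry numbers that no other arch has, so they add nothing to the genotype difference in the fixed fit. The calls of that fit, also that for Nr2f2 above, thus rest on fewer arches than those of the main fit. An effect of the number and the loss of these arches cannot be told apart there. As a random replicate block the number gave 6 lower members, 1 higher, and 199 higher genes of all.

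Members that were not called changed sign as follows. Under the fixed replicate block the log2 fold changes were Gsc 0.10, Pbx3 -0.032, Foxd1 0.083, Foxf2 0.36 and Tfap2a -0.030, and under the random replicate block Pbx3 -0.0022 and Foxf2 0.084. With the brain covariate they were Gsc 1.12, Prrx1 0.10, Alx4 0.69, Foxc1 -0.23, Osr1 0.61, Osr2 0.59, Tfap2a -0.048, Twist2 0.092, Snai2 0.49 and Runx2 0.57. With the sensory neuron covariate they were Shox2 -0.46, Foxf2 0.14 and Sox9 0.013. Without wild-type arches 1 and 2 they were Gsc 0.063, Alx4 0.056, Shox2 -0.30, Foxf2 0.021 and Snai2 0.016, and without Grhl2-/- arches 1 and 4 Gsc 0.17, Alx4 0.094 and Snai2 0.059. Foxf2 was 0.039 in edgeR and 0.037 in DESeq2, and Snai2 0.0039 with quality weights. Causes were not tested.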
